A study of Bos taurus with 22 samples.

Results

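Reads of bovine plasma small RNA that were counted under the name of a human miRNA are described here. The authors' read table holds 844 mature miRNAs, of which 611 carry a bovine name and 233 a human name. The human homologues described are the 232 of those 233 other than miR-210-3p, chosen by name and not by level. They were measured in jugular plasma, drawn into EDTA tubes, of 11 Holstein-Friesian heifers that had not been inseminated before and whose oestrus had been synchronised. Each heifer was sampled on Day 0 of artificial insemination and again on Day 60, when it was pregnant, which gave 22 libraries. All heifers received the same synchronisation and insemination, no heifer served as a non-pregnant control on Day 60, and pregnancy therefore cannot be told apart from the time between the samples.

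MicroRNAs (miRNAs) are small non-coding RNAs cut from hairpin precursors that guide repression of messenger RNAs, and either arm of the hairpin can give a mature miRNA. Plasma carries them in vesicles and protein complexes released by blood cells and by solid organs such as the liver. Where the miRNA catalogue of a species is less complete than that of human, reads placed on its genome can be named after a matching human miRNA. A plasma level does not tell the number of releasing cells apart from the RNA released by each.

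Levels are given as RPMM, the reads of a miRNA per 1000000 reads of all bovine and human miRNAs of the library. Total miRNA reads ran from 1912290 to 6839128 on Day 0 and from 304117 to 12775451 on Day 60. The library of heifer 17 on Day 60 stood apart as the shallowest. The erythroid list (miR-451, miR-486, miR-144 and miR-16b), miRNAs typical of blood, took 19.4 ± 8.13% (SD, n = 11) of miRNA reads on Day 0 and 23.1 ± 7.73% on Day 60. Its part in the results given here was not tested.

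The human homologues were few in reads and uneven. They held 83347 reads over the 22 libraries, and miR-4532 alone took 65.0% of them. With miR-4792 and miR-802 the share reached 80.0%. Of the 232 members, 27 had a mean of at least 1 RPMM and 205 were below it. Reads were found in every library for 18 members, and in 1 library only for 99. As many as 117 members had 1 or 2 reads in all libraries together, and 34 had more than 10 reads in at least 1 library. Only miR-4532, miR-802 and miR-1306-3p exceeded 10 reads in every library. A count of 0 allows up to 3 reads, which corresponds to between 0.439 and 1.57 RPMM on Day 0 and between 0.235 and 9.86 RPMM on Day 60, so that most members could not be followed between days at this depth.

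Most human names had no bovine counterpart by number. For 188 members (81.0%) neither a bovine miRNA of the table nor a bovine miRNA gene of RefSeq (ARS-UCD2.0, used for names only) carried the same number. These 188 held 88.6% of the reads, but only 18 of them exceeded 10 reads in any library. In 35 members a bovine miRNA of the same number was in the table, and 13 of these exceeded 10 reads. The remaining 9, among them miR-574-3p, miR-652-3p and miR-210-5p, shared a number with a RefSeq bovine miRNA gene only. The last, miR-210-5p, is the other arm of the hairpin that gives the hypoxia-responsive miR-210-3p.

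Many of the abundant members were short. From the deposited positions, members spanned 16 to 26 nt with a median of 21 nt. The 46 members of 17 or 18 nt, which include miR-4532, miR-4792, miR-1306-3p, miR-6087 and miR-7977, held 82.3% of the members' reads, and 49.4% of those of members other than miR-4532. Of the 10 most abundant members, 6 were of this length. Among the 611 bovine miRNAs, 7 were of 17 or 18 nt, and these held 0.00697% of bovine reads. The other 4 were miR-802 (23 nt), miR-574-3p (22 nt), miR-652-3p (21 nt) and miR-320d (19 nt). A total of 24 members were placed on unassigned scaffolds of the bosTau4 assembly and 2 on the mitochondrial chromosome (M), namely miR-4485-3p at positions 2358 to 2377 and miR-1973 at positions 2377 to 2395. Human miR-4485 matches mitochondrial ribosomal RNA. Its level was 3.39 ± 2.20 RPMM on Day 0 and 3.17 ± 2.05 RPMM on Day 60 (SD, n = 11).

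The most abundant human homologue fell between Day 0 and Day 60. miR-4532 was placed on chromosome 24 from 41098756 to 41098772 on the plus strand (bosTau4). It ranged on Day 0 from 263 to 3104 RPMM with a median of 501, and on Day 60 from 43.1 to 348 RPMM with a median of 238. The highest levels among the 22 libraries were those of heifers 14 (3104 RPMM), 11 (1597 RPMM), 10 (1573 RPMM) and 17 (973 RPMM), all on Day 0. The groups overlapped, since on Day 60 heifers 24 (348 RPMM), 11 (317 RPMM) and 14 (306 RPMM) were above heifer 29 on Day 0 (263 RPMM). The mean was 926 ± 868 RPMM on Day 0 and 220 ± 90.0 RPMM on Day 60 (SD, n = 11), and the RPMM level was lower in 10 of 11 heifers. The exception was heifer 24, with 307 RPMM on Day 0 and 348 RPMM on Day 60.

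edgeR's quasi-likelihood test, with TMM normalisation and heifer as a block, was run on miRNAs that exceeded 25 RPMM in at least 9 of the 11 libraries of a day. FDR is its Benjamini-Hochberg adjusted p over all miRNAs tested, with a threshold of 0.05. Of 195 miRNAs tested, 69 passed (35.4%), and 3 of those tested were human homologues. miR-4532 passed with a log2 fold-change of -1.60 (SE 0.35, FDR = 0.00837), and TMM-normalised levels were lower on Day 60 in 9 of 11 heifers. Next to the 35.4% called over all miRNAs, 1 of 3 members is not a high share. The other 2 members did not pass.

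**Figure D1:**
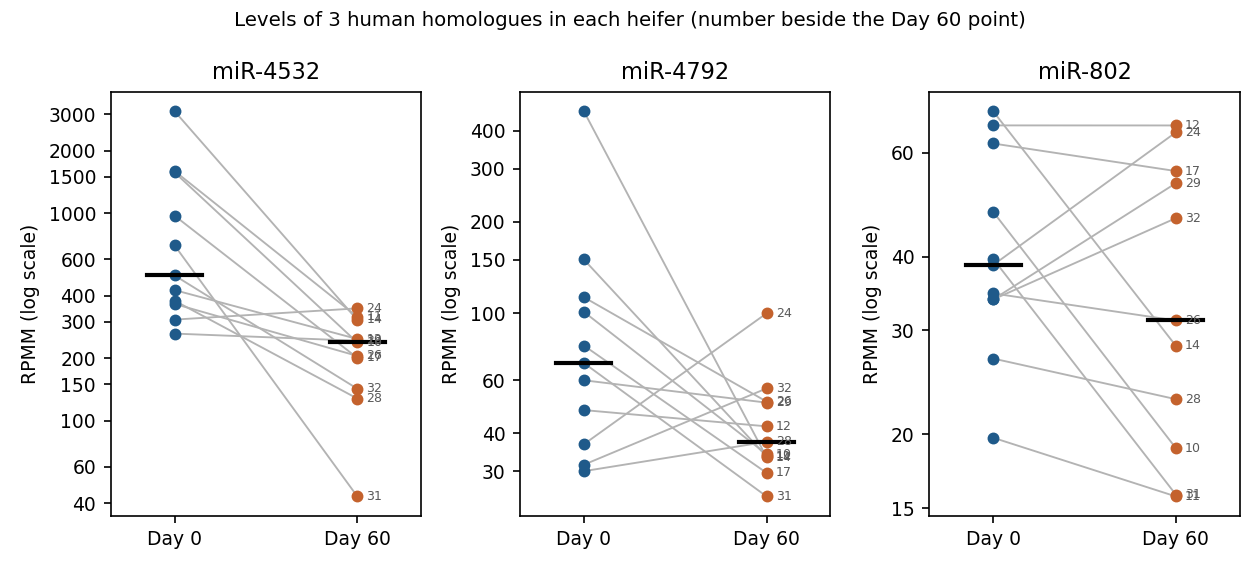
Levels of miR-4532, miR-4792 and miR-802 in RPMM on log scales in each of 11 heifers on Day 0 and Day 60; lines join libraries of the same heifer and black bars are medians. miR-4532 drops from a median of 501 to 238 RPMM, whereas the points of miR-802 overlap nearly throughout.

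miR-4792 was placed on chromosome 18 from 59082174 to 59082191, plus strand. On Day 0 it ranged from 30 to 465 RPMM (median 68.3) and on Day 60 from 24.7 to 99.8 RPMM (median 37.5). Heifer 14 on Day 0 stood far above the rest, as it did for miR-4532, and all Day 60 levels lay within the Day 0 range except that of heifer 31 (24.7 RPMM) and that of heifer 17 (29.6 RPMM, from 9 reads). The mean was 107 ± 124 RPMM on Day 0 and 44.8 ± 20.7 RPMM on Day 60. The log2 fold-change was -0.62 ± 0.38 (SE) at an edgeR FDR of 0.208.

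miR-802, a miRNA of the liver in human and mouse, was placed on scaffold Un.004.806 from 10777 to 10799, plus strand. It ranged from 19.7 to 70.6 RPMM (median 38.7) on Day 0 and from 15.7 to 66.8 RPMM (median 31.2) on Day 60. Its levels thus spanned nearly the same range on both days. Means were 43.2 ± 16.7 and 38.2 ± 19.8 RPMM, the log2 fold-change was -0.08 ± 0.20 (SE) at an edgeR FDR of 0.770, and TMM-normalised levels were higher on Day 60 in 6 heifers and lower in 5. Under other settings the sign of this small value turned, as with scaling to miR-128 (0.01).

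Counting error was wide in the shallow library of heifer 17 on Day 60. Its 61 reads of miR-4532 gave 201 RPMM with a Wilson 95% interval of 156 to 258. Its 17 reads of miR-802 gave 55.9 RPMM (34.9 to 89.5), and its 9 reads of miR-4792 gave 29.6 RPMM (15.6 to 56.2). Intervals cover counting error only, and reads without molecular identifiers are not independent molecules.

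The reads of all human homologues together followed miR-4532. They made up 0.124 ± 0.101% of miRNA reads on Day 0 and 0.0442 ± 0.0126% on Day 60 (SD, n = 11), a share that was lower in 10 of 11 heifers (two-sided exact sign-flip permutation test, p = 0.00293, where 11 heifers allow no p below 0.000977). On Day 0 the share ran from 0.0524 to 0.385%, highest in heifer 14, and on Day 60 from 0.0164 to 0.0659%. Without miR-4532 the share was 0.0312 ± 0.0153% on Day 0 and 0.0222 ± 0.00589% on Day 60, lower in 8 of 11 heifers (exact sign-flip permutation test, p = 0.0596). That difference of -0.00898 percentage points did not pass, and its size depended on heifer 14, without which it was -0.00448 (exact sign-flip permutation p = 0.119). It passed without heifer 24 (-0.0108, exact sign-flip permutation p = 0.0215) or without heifer 32 (-0.0106, p = 0.0273). With repeated values kept it was -0.000783 (exact sign-flip permutation p = 0.912), and without miR-4792 as well it was -0.00272 (p = 0.0879).

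**Figure D2:**
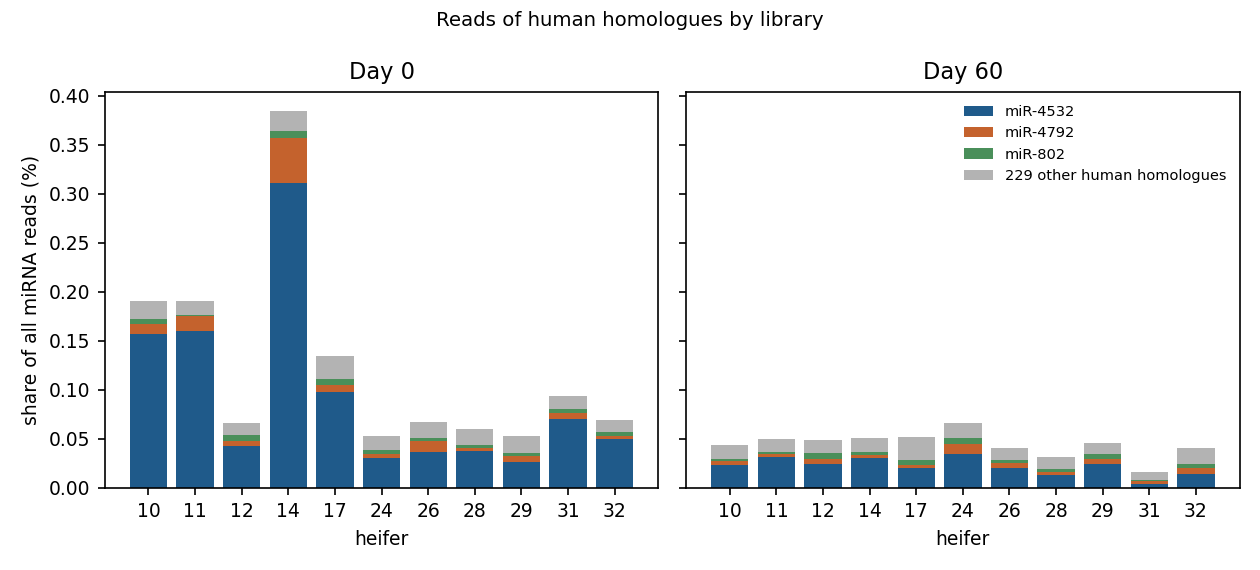
Share of all miRNA reads (%) held by human homologues in each library, split into miR-4532, miR-4792, miR-802 and the other members; values that repeat another library are left out. The Day 0 library of heifer 14 reaches 0.385%, and no Day 60 library exceeds 0.0659%.

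Within the human homologues, miR-4532 made up 68.8 ± 11.5% of reads on Day 0 and 47.8 ± 11.4% on Day 60. The authors' normalised table gives RPMM in which human homologues are scaled among themselves, with sums of 908867 to 979086 per library. By construction, a smaller share of that sum for miR-4532 leaves a larger share for the sum of the other human homologues. The direction of a single member is not fixed by this, and miR-4792 was higher there in 7 of 11 heifers and lower in 4. On that deposited scale miR-802 was 25644 ± 11659 on Day 0 and 44687 ± 15444 on Day 60, higher in 11 of 11 heifers (mean log2 difference 0.86, exact sign-flip permutation p = 0.000977, the smallest possible). Scaled to all miRNA reads it was lower in 8 of 11 heifers. As a percentage of the human homologue reads, miR-802 went from 4.80% to 8.63% and miR-4792 from 8.22% to 10.4%. For miR-4792 the mean log2 difference on the deposited scale was 0.28 (exact sign-flip permutation p = 0.300), against -0.62 in the edgeR test. For miR-4532 the direction held on the deposited scale, with a mean log2 difference of -0.66 (exact sign-flip permutation p = 0.0176) and lower values in 9 of 11 heifers.

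Less abundant members were reached by requiring more than 10 reads in at least 9 of the 11 libraries of a day, which left 310 miRNAs, 16 of them human homologues. Of these 310, 92 passed at an FDR of 0.05 (29.7%, 53 lower and 39 higher on Day 60). Among the 16 human homologues 3 were lower and 1 was higher, a share near that of all miRNAs. Their median log2 fold-change was -0.13, against -0.10 over all 310. Scaled by library totals, where the median of all 310 was -0.24, 4 members were lower and none was higher. How many of all 310 passed in each direction with that scaling is not given, so these member counts cannot be set against it. With no filter on low counts, 5 of 232 members passed, against 54 of all 844 miRNAs (6.4%). With repeated values set to 0 as well, 4 of 232 members passed, against 75 of 844 (8.89%).

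**Figure D3:**
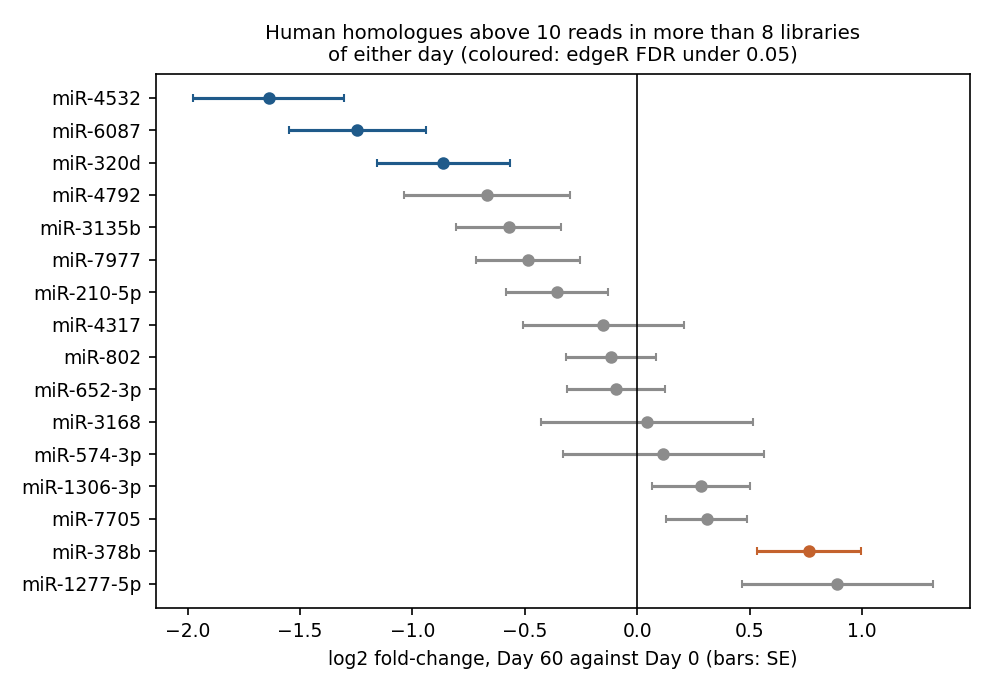
Log2 fold-change (Day 60 against Day 0, bars are SE) of the 16 human homologues above 10 reads in at least 9 of the 11 libraries of a day, from edgeR; coloured points have an FDR under 0.05. miR-4532, miR-6087 and miR-320d lie below 0 and miR-378b above it.

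miR-6087 was placed on chromosome 21 from 52042682 to 52042699 on the minus strand. Levels on Day 0 ran from 7.57 to 29.5 RPMM (median 17.2) and on Day 60 from 2.58 to 14.5 RPMM (median 8.16). The Day 60 median was close to the lowest Day 0 level. The mean fell from 18.3 ± 6.52 to 7.94 ± 4.75 RPMM, with a log2 fold-change of -1.25 ± 0.31 (SE) at an edgeR FDR of 0.0135 and lower levels in 10 of 11 heifers on both RPMM and TMM-normalised levels.

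miR-320d has the number of the bovine miR-320 family and was placed on scaffold Un.004.569 from 51623 to 51641, minus strand. Day 0 levels ran from 5.50 to 19.7 RPMM (median 14.3) and Day 60 levels from 3.19 to 13.9 RPMM (median 5.82). The groups overlapped over much of their range. The mean went from 14.0 ± 4.54 to 6.92 ± 3.35 RPMM (log2 fold-change -0.86 ± 0.30 SE with an edgeR FDR of 0.0411), lower in 10 of 11 heifers on RPMM and in 9 of 11 on TMM-normalised levels. This call was lost with DESeq2 size factors (edgeR FDR = 0.0624), upper quartile (0.0848) or miR-128 scaling (0.115), and on leaving out any heifer other than 31 or 32 the edgeR FDR was between 0.0590 and 0.113. bta-miR-320a, its bovine relative, had a log2 fold-change of -0.41 in the same test (edgeR FDR = 0.0803).

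miR-378b was the member that rose. It was placed on chromosome 1 from 138194090 to 138194108, minus strand, and belongs to the family of miR-378, whose best known member lies within PPARGC1B, a gene of mitochondrial metabolism. It ranged from 3.28 to 8.87 RPMM on Day 0 (median 4.75) and from 3.29 to 12.0 RPMM on Day 60 (median 6.95). Means were 5.11 ± 1.68 and 7.61 ± 2.99 RPMM, with a log2 fold-change of 0.77 ± 0.23 (SE) at an edgeR FDR of 0.0324. It was higher on Day 60 in 9 of 11 heifers on RPMM and in 10 of 11 on TMM-normalised levels. The call did not hold with library totals (log2 fold-change 0.62, FDR = 0.0719) or without any of heifers 11 (FDR = 0.0834), 26 (FDR = 0.0506), 28 (FDR = 0.0764) and 29 (FDR = 0.0503). bta-miR-378 had a log2 fold-change of 0.26 (edgeR FDR = 0.376).

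Both families are counted over near-identical copies, so which copy a read came from is uncertain. The 9 human miR-378 members together amounted to a median of 0.516% of the bta-miR-378 reads of the library on Day 0 (0.396 to 0.671%) and 0.602% on Day 60 (0.467 to 0.935%). The miR-320 pair, miR-320d and miR-320e, amounted to 0.418% of bta-miR-320a reads on Day 0 (0.250 to 0.478%) and 0.272% on Day 60 (0.156 to 0.390%). The reads of these members were thus under 1% of those of their bovine relatives.

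The other 12 members of that test did not pass. miR-574-3p varied widely between heifers, from 3.04 to 61.8 RPMM on Day 0 (median 5.84) and from 2.04 to 50.8 RPMM on Day 60 (median 5.49). Its high libraries were heifers 17 (61.8 RPMM), 10 (41.0 RPMM) and 28 (32.8 RPMM) on Day 0, and 14 (50.8 RPMM), 10 (33.5 RPMM) and 24 (24.3 RPMM) on Day 60. Only heifer 10 was thus among the 3 highest on both days. miR-3168 had a Day 60 mean of 10.8 ± 18.8 RPMM that rests on heifer 17, where 20 reads gave 65.8 RPMM, and the other Day 60 levels reached at most 12.4 RPMM. miR-7977 was at 14.9 ± 4.57 RPMM on Day 0 and 10.1 ± 4.17 RPMM on Day 60 (log2 fold-change -0.49, edgeR FDR = 0.121). miR-652-3p was at 7.39 ± 2.08 and 6.88 ± 3.67 RPMM, with a log2 fold-change of -0.09 (edgeR FDR = 0.758). miR-210-5p had a log2 fold-change of -0.36 (edgeR FDR = 0.248), miR-3135b one of -0.57 (FDR = 0.0774) and miR-7705 one of 0.31 (FDR = 0.217).

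A few members lie beside a bovine miRNA as the other arm of what would be the same hairpin. By position, 1 member overlapped a bovine miRNA (miR-27a-3p, 26 reads against 857585 for bta-miR-27a-3p), 8 lay within 100 bases of one and 223 lay elsewhere. miR-1306-3p, whose human gene lies in that of DGCR8, a protein that recognises miRNA hairpins, was placed on chromosome 17 from 76443989 to 76444006, plus strand, 19 bases from bta-miR-1306. Over all libraries 1798 reads fell on it and 2102 on bta-miR-1306, so that it held 46.1% of the reads of the pair. By library the share was 25 to 52.6% on Day 0 (median 46.9%) and 40.1 to 57.8% on Day 60 (median 48.9%). Both arms were therefore read at similar levels on both days. miR-1306-3p itself was at 14.0 ± 2.82 RPMM on Day 0 and 16.6 ± 8.01 RPMM on Day 60 (log2 fold-change 0.28, edgeR FDR = 0.330), and bta-miR-1306 had a log2 fold-change of -0.03 (edgeR FDR = 0.911).

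miR-1277-5p was the main arm of its pair. It lies on scaffold Un.004.13 from 512964 to 512987, plus strand, 15 bases from bta-miR-1277. It held 604 reads against 72 (89.3%), with the higher count in 21 of 22 libraries. The exception was heifer 17 on Day 60, where its value repeats another library and was set to 0. The bta-miR-1277 value of heifer 14 on Day 0 was also set to 0, because its ratio of normalised value to count differed from that of the library. The log2 fold-change of miR-1277-5p was 0.89 ± 0.42 (SE) at an edgeR FDR of 0.122. It was 0.49 (FDR = 0.293) once 1 value of 45 reads that repeats another library was set to 0. miR-6516-3p, 20 bases from bta-miR-6516 on chromosome 19, held 135 reads against 81 (62.5%). In contrast, let-7g-3p had 5 reads next to 404053 of bta-let-7g, let-7i-3p 1 read next to 443972 of bta-let-7i, and miR-18a-3p 5 reads next to 9659 of bta-miR-18a.

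miR-802 was compared across heifers with liver miRNAs, separately on each day, as 4 of 8 relations tested. Its level followed that of bta-miR-122, the dominant miRNA of hepatocytes. On log2 RPMM over 11 heifers, Pearson's r was 0.82 on Day 0 (permutation p = 0.00206, adjusted over 8 relations 0.00988) and Spearman's rho 0.81 (permutation p = 0.00417, adjusted 0.0167). On Day 60, r was 0.67 (permutation p = 0.00613, adjusted 0.0163) and rho 0.87 (permutation p = 0.00091, adjusted 0.00728). Without the 2 heifers farthest from the median of miR-122, r was 0.84 on Day 0 (without 14 and 29) and 0.96 on Day 60 (without 17 and 28). The relation did not rest on those heifers.

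Without heifer 17 alone, r on Day 60 was 0.90. Its bta-miR-122 was 22843 RPMM from 6947 reads, while the other 10 heifers ran from 5.17 to 140 RPMM on Day 60 and all 11 from 19.1 to 151 RPMM on Day 0. Its miR-802 was at 55.9 RPMM, within the range of the other heifers. Within the liver list, in the test of miRNAs above 10 reads, the log2 fold-change of bta-miR-122 was 0.11 ± 0.74 (SE, edgeR FDR = 0.911). With so wide an SE its change was left undetermined, and TMM-normalised levels were higher in 6 heifers and lower in 5. Values were -0.22 ± 0.18 for bta-miR-192 (FDR = 0.354), -0.10 ± 0.16 for bta-miR-194 (FDR = 0.659) and 0.23 ± 0.21 for bta-miR-885 (FDR = 0.412). In that same test miR-802 was at -0.12 ± 0.20 (FDR = 0.668). None of the 5 liver list members, miR-802 included, passed the threshold.

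**Figure D4:**
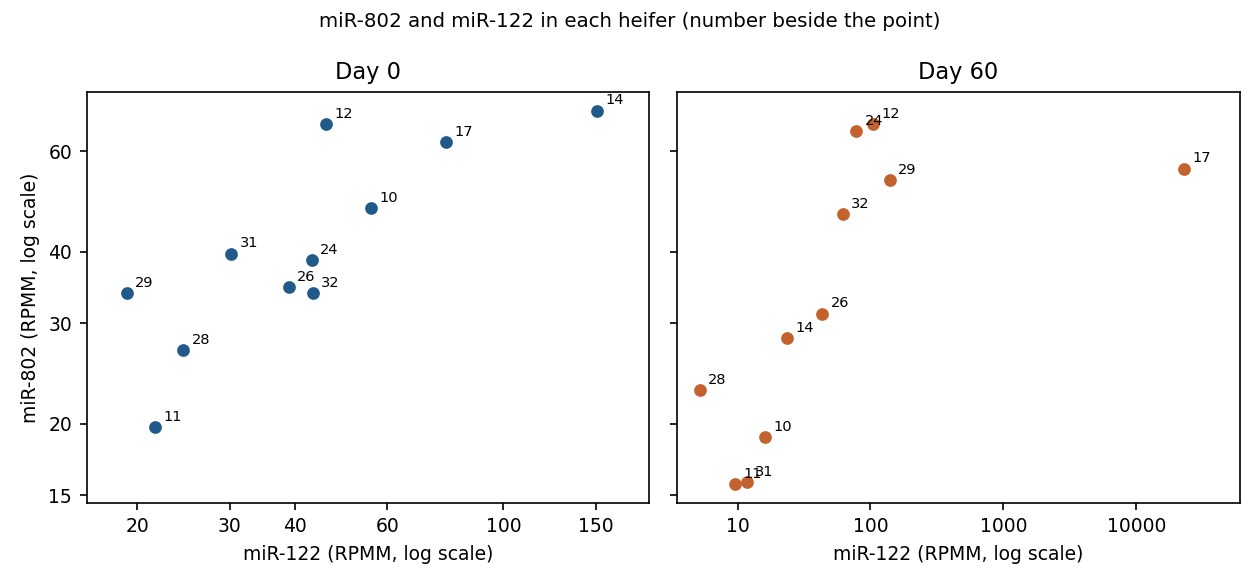
miR-802 against bta-miR-122 (both in RPMM, log scales) in 11 heifers on Day 0 and Day 60, with the heifer number beside each point. The points rise together on both days, and heifer 17 on Day 60 lies far to the right at 22843 RPMM of miR-122 with 55.9 RPMM of miR-802.

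With bta-miR-192, a miRNA of liver, gut and kidney, the relation of miR-802 was less firm. On Day 0, r was 0.63 (permutation p = 0.0406, adjusted 0.0650) and rho 0.68 (permutation p = 0.0255, adjusted 0.0510), and r was 0.55 without heifers 14 and 32. On Day 60, r was 0.77 (permutation p = 0.00920, adjusted 0.0184) and rho 0.68 (permutation p = 0.0247, adjusted 0.0510), and r was 0.68 without heifers 24 and 29. All values of one day share the same libraries and their totals.

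miR-4532 and miR-4792 were related on Day 0 by r but not, after adjustment, by rho. Day 0 r was 0.80 (permutation p = 0.00247, adjusted 0.00988), rho was 0.63 (permutation p = 0.0432, adjusted 0.0692), and r was 0.62 without heifers 14 and 28 and 0.64 without heifer 14 alone. On Day 60, r was 0.46 (permutation p = 0.153, adjusted 0.204) and rho 0.27 (permutation p = 0.420, adjusted 0.560), and r turned to -0.37 without heifers 24 and 31. No relation of miR-4532 with the depth of the library was detected, with r of -0.34 on Day 0 (permutation p = 0.299, adjusted 0.341) and -0.14 on Day 60 (permutation p = 0.617, adjusted 0.617). Spearman's rho was -0.16 (permutation p = 0.633, adjusted 0.723) and 0.02 (permutation p = 0.967, adjusted 0.967), and without 2 heifers r was 0.18 and -0.48.

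Part of the low values on Day 60 repeats another library. Within a library the ratio of the normalised value to the count is otherwise the same for every human homologue. Values whose ratio differed by more than 0.2% were taken as repeats, and nearly all of them matched what another Day 60 library held. Such a ratio was found for 188 values of 70 members in 7 Day 60 libraries and for none on Day 0. Heifer 17 had 55 such values, heifer 11 had 35, heifer 10 had 34, heifer 28 had 33, heifers 14 and 24 had 15 each and heifer 31 had 1. Nearly all those of heifers 10, 11, 17 and 28 repeat heifer 31, and those of heifers 14 and 24 repeat heifer 32. The value of heifer 31, miR-937-5p, repeats heifer 12.

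Most often repeated was miR-7704, with 6 values, followed by miR-665, miR-7153-3p, miR-7975 and miR-877-3p with 5 each. The largest was miR-1277-5p in heifer 17 with 45 reads. None of the repeated values belonged to miR-4532, miR-4792 or miR-802. In heifer 17 on Day 60, repeated values held 256 reads beside 158 own reads, and members with reads went from 81 to 26 once these were set to 0, as in the RPMM given here. Its members above 10 reads went from 13 to 4.

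**Figure D5:**
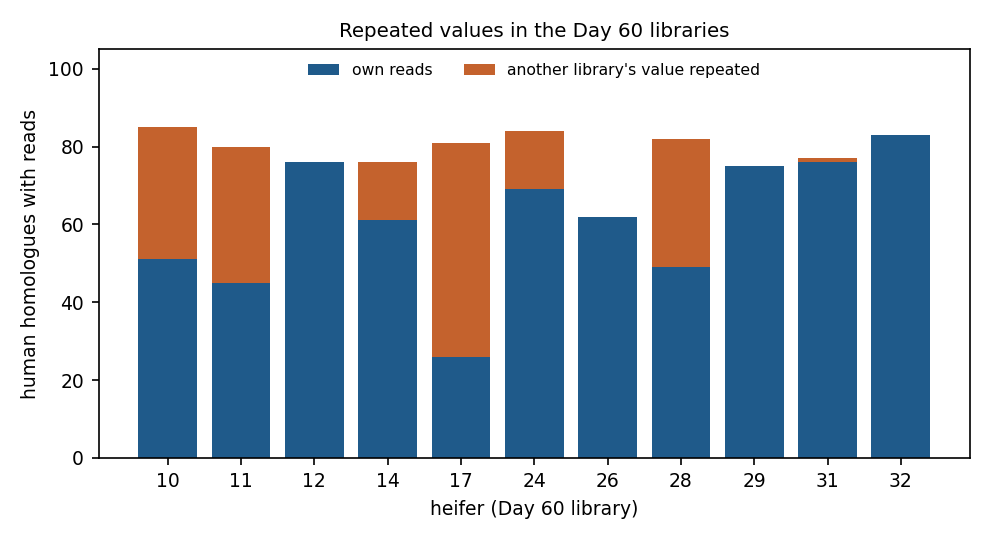
Number of human homologues with reads in each Day 60 library, split into own reads and values that repeat another library. Heifer 17 has the most repeated values, 55 beside 26 of its own, and heifers 12, 26, 29 and 32 have none.

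The number of members above 10 reads was 18.5 ± 2.50 on Day 0 (14 to 23) and 19.6 ± 6.50 on Day 60 (4 to 26), higher in 6 heifers and lower in 4 (exact sign-flip permutation test, p = 0.648). The Day 60 libraries were deeper in the median. When all libraries were thinned to 302591 miRNA reads the difference turned to -0.33 members (exact sign-flip permutation test, p = 0.255). Thinning left few members above 10 reads, from 1.1 in heifer 31 on Day 60 to 4.05 in heifer 17 on Day 0 (means of 20 draws).

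Some members were high in a few libraries and at 0 in most. miR-1260b had reads in 4 libraries, with 113 reads (10.3 RPMM) in heifer 12 on Day 60. miR-1260a, named after its values were seen, had 2 reads there. It had 0 in heifer 32 on Day 0 and heifer 14 on Day 60, where miR-1260b had 65 and 15. In heifer 17 on Day 60 miR-1260b had 2 reads, and the miR-1260a value repeats another library. Heifer 31 on Day 60 had 4 reads of miR-1260a and 0 of miR-1260b. Whether reads were counted under either name was not tested. miR-378d had 25 reads, all in heifer 29 on Day 60. miR-1827 reached 19 reads in heifer 31 on Day 60 and miR-6129 reached 14 reads in heifer 29 on Day 60, and each had 1 read in 5 other libraries. The C19MC cluster, a primate-specific miRNA cluster of the placenta, was represented by 2 names, miR-518f-5p and miR-520a-3p, with 1 read each in all 22 libraries together.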

How the data were processed

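The authors prepared TruSeq small RNA libraries, sequenced 36-base single reads, assigned them to the bosTau4 assembly and miRBase 21 with sRNAbench 1.0 (Bowtie 0.12.9, 1 mismatch, reads below 15 nt removed) and deposited read counts per mature miRNA. A second deposited table by the authors holds normalised values, treated as a score because bovine and human names are scaled separately. Libraries were grouped by day and paired by heifer, as given in the labels. Deviations from the day mean correlated at a mean of 0.141 within heifers (-0.315 to 0.583) and -0.00619 between heifers.

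Values that repeat another library were found from the ratio of both tables at a tolerance of 0.2% and set to 0 in RPMM, shares and counts of members (over totals as deposited), whereas edgeR tests used the counts as deposited. edgeR 4.0.16 (R 4.3.3) was run on the whole table and tested on simulated data. Correlations used 100000 permutations and sign-flip tests all 2048 sign patterns. DESeq2 1.42.0 gave size factors and an alternative test, and limma 3.58.1 gave the limma-voom test. Under Python 3.11.15, scipy 1.17.1 with numpy 2.4.6 gave intervals and correlations, and pandas 2.3.3 and matplotlib 3.10.9 gave tables and plots.

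The members, lists and tests were chosen with earlier results of these data known. Named by rule were members that passed the 25 RPMM filter, the 10 highest by mean RPMM, those above 10 reads in a library at 20 times their median or more, the 3 with most repeated values (4 tied at 5 are all given) and C19MC members above 10 reads, of which there were none. Other members were named after their values were seen, among them miR-378b, miR-1277-5p, miR-6516-3p, miR-210-5p, miR-3135b, miR-7705, miR-4485-3p, miR-1973, miR-627-5p, miR-1290, miR-4317, miR-320e, miR-937-5p, miR-518f-5p, miR-520a-3p, miR-27a-3p, miR-18a-3p, let-7g-3p and let-7i-3p. Alternatives were other scalings, other filters, no block, thinning, values as deposited and each heifer left out. Other tests were alternatives too, namely the DESeq2 test, edgeR's likelihood ratio test and limma-voom. Raw reads and mature sequences were not analysed here.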

Additional observations from a re-analysis of the deposited data

How the results depend on the processing

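The fall of miR-4532 kept its direction and stayed past the threshold in all 24 alternatives. Its log2 fold-change was -1.82 to -1.40 when each heifer was left out (edgeR FDR 0.00438 to 0.0246) and -1.88 to -0.66 otherwise. All 24 rest on the same sequencing libraries. In the authors' RT-qPCR of these heifers miR-4532 was also lower on Day 60, but the difference was smaller and not significant. The number of human homologues past the threshold was 1 of 3 tested, where 35.4% of all 195 miRNAs passed, and 1 when any heifer was left out. The share of all miRNAs that passed without each heifer is not given, so those counts cannot be set against it. With no filter the number was 5 of 232, where 6.4% of all miRNAs passed (miR-1827, miR-378b, miR-4532, miR-6087 and miR-627-5p). It was 4 of 232 with no filter and repeated values at 0, where 8.89% passed, an alternative chosen after seeing the data. In the latter, edgeR FDR rose from 0.0453 to 0.235 for miR-1827 and from 0.0351 to 0.661 for miR-627-5p, and miR-1290 passed. The number was 4 of 16 with a filter of more than 10 reads in place of 25 RPMM, where 29.7% of all 310 miRNAs passed.

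Without the heifer block the number was 2, as miR-4792 passed as well (-1.05, edgeR FDR = 0.0304). The share of all miRNAs that passed without the block is not given, so this number cannot be set against it. For 3 of 11 heifers the Day 0 library correlated best with the Day 60 library of the same animal. Library totals moved the median of the 310 miRNAs to -0.24, from -0.10 with TMM.

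miR-802 turned in sign but stayed near 0 with miR-128 scaling (0.0132), no filter (0.00024), no filter and repeated values at 0 (0.0149), no replicate block (0.0132) and without heifer 31 (0.0118), and its range without each heifer was -0.20 to 0.0118. On the deposited RPMM, an alternative added after seeing the data, it was 0.86 and miR-4792 turned to 0.28, and over the other alternatives miR-802 was no lower than -0.26. Without each heifer, miR-4792 was between -0.87 and -0.38.

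The difference in the share of human homologue reads was -0.0889 to -0.0542 percentage points without each heifer. Without miR-4532 it was -0.0108 to -0.00448 (exact sign-flip permutation p 0.0215 to 0.119), and -0.000783 with repeated values kept. The number above 10 reads differed by 0.1 to 2.5 without each heifer, by 2.09 with repeated values kept and by -0.33 after thinning. miR-6087 stayed past the threshold in all 17 alternatives of its test (without each heifer, FDR 0.00115 to 0.0463), all of them chosen after seeing the data. Depth limits members under 1 RPMM, for which 0 reads do not show absence.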

Other observations

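miR-1290, placed on chromosome 12 from 68411747 to 68411765 on the minus strand, was at 3.43 ± 1.33 RPMM on Day 0 (1.82 to 5.64) and at 1.52 ± 1.94 RPMM on Day 60 (0 to 6.94) (SD, n = 11), lower in 10 of 11 heifers, heifer 17 included. The 0 is that of heifer 17, whose Day 60 value repeats another library and was set to 0, with a Wilson 95% upper limit of 12.6 RPMM against 4.65 RPMM on Day 0, so that its direction there is unknown. miR-1290 was below both filters on low counts. With no filter its log2 fold-change was -0.67 (edgeR FDR = 0.404) on the counts as deposited and -1.03 (FDR = 0.0362) with repeated values at 0. miR-4317, on the minus strand of the same chromosome from 14795551 to 14795567, was at 3.23 ± 0.74 RPMM on Day 0 and 1.85 ± 0.86 RPMM on Day 60. That Day 60 mean also counts heifer 17 at 0, where the value repeats another library (Wilson 95% upper limit 12.6 RPMM), which lowers it. The edgeR log2 fold-change of miR-4317 was -0.15 (FDR = 0.763) on the counts as deposited and -0.52 (FDR = 0.0734) with 1 repeated value set to 0, and in neither case did it pass.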
